A study of Mus musculus with 8 samples.

Results

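The anaphase-promoting complex or cyclosome (APC/C) is the ubiquitin ligase that ends mitosis, and 9 of its regulators and anaphase effectors were followed in fetal mouse ovaries that had or had not lost the BMP receptor gene *Bmpr1a* in germ cells. The 9 genes were chosen by symbol from the 25239 genes in the count files and comprise the coactivators *Cdc20* and *Fzr1*, the inhibitors *Fbxo5* and *Fbxo43*, the F-box cyclin *Ccnf*, the E2 enzymes *Ube2c* and *Ube2s*, and the securin *Pttg1* with the separase *Espl1*. The rule names symbols and no measured values, but the genes were chosen with earlier results of these data known. The counts of called members below therefore describe a set that was not chosen blind. Of the 9, 8 passed the filter on low counts and were tested among 14249 genes, and *Fbxo43* did not pass.

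Whole ovaries at E14.5 were sequenced as 4 control libraries, whose genotype was Bmpr1a fl/fl, and 4 *Bmpr1a*-cKO libraries, whose genotype was Bmpr1a fl/fl with Oct4-Cre Cre/WT, on a C57BL/6 background, and each library pooled 2 pairs of ovaries. The dams of both genotypes were given 4-hydroxytamoxifen (1 mg) and progesterone (0.5 mg) at 9.5, again at 10.5 and again at 11.5 dpc, which activates the inducible Cre in cells that express *Oct4*, the germ cells of the gonad. Somatic cells of the ovary therefore keep *Bmpr1a*, control embryos carry no Cre, and the effect of Cre itself cannot be told apart from that of the deletion. The 8 embryos of each genotype came from 6 litters, and the controls were littermates of the mutants. Since the litter behind each library is not given, the main test takes no account of litters, and the p-values measure the spread between these pools only.

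The APC/C attaches ubiquitin to mitotic proteins so that the proteasome destroys them, and it needs a coactivator that brings the substrates in. CDC20 serves this role in mitosis, once the spindle checkpoint has released it, and CDH1, the product of *Fzr1*, serves it from late mitosis through G1. Destruction of securin frees separase, which opens the cohesin ring around sister chromatids, whereas fetal ovarian germ cells leave the mitotic cycle to enter meiosis at about the age sampled here and hold on to their cohesion.

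Expression is given as CPM, the counts of a gene relative to the total of its library after TMM scaling, and the Log2FC, its standard error (SE) and the false discovery rate (FDR) were estimated in edgeR, by its two-sided quasi-likelihood F test over all 14249 genes. A differentially expressed gene (DEG) had an absolute Log2FC above 0.5 and an FDR below 0.05. *Cdc20*, *Ccnf* and *Ube2c* were upregulated DEGs in *Bmpr1a*-cKO ovaries, that is 3 of the 8 tested members where 6.11% of all genes tested were, and 0 of 8 were downregulated DEGs where 4.06% of all genes were. *Fzr1* and *Ube2s* were also higher at an FDR below 0.05 but did not reach the fold threshold, so that 5 of 8 were higher against 17.3% of all genes, and 0 of 8 were lower against 12.5%. *Fbxo5*, *Pttg1* and *Espl1* had an FDR above 0.05. In the same 5 members all 4 *Bmpr1a*-cKO libraries exceeded the highest control library, as in 16.1% of all genes, and in no member did all 4 lie below the lowest control, as in 11.7% of all genes.

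**Figure D1:**
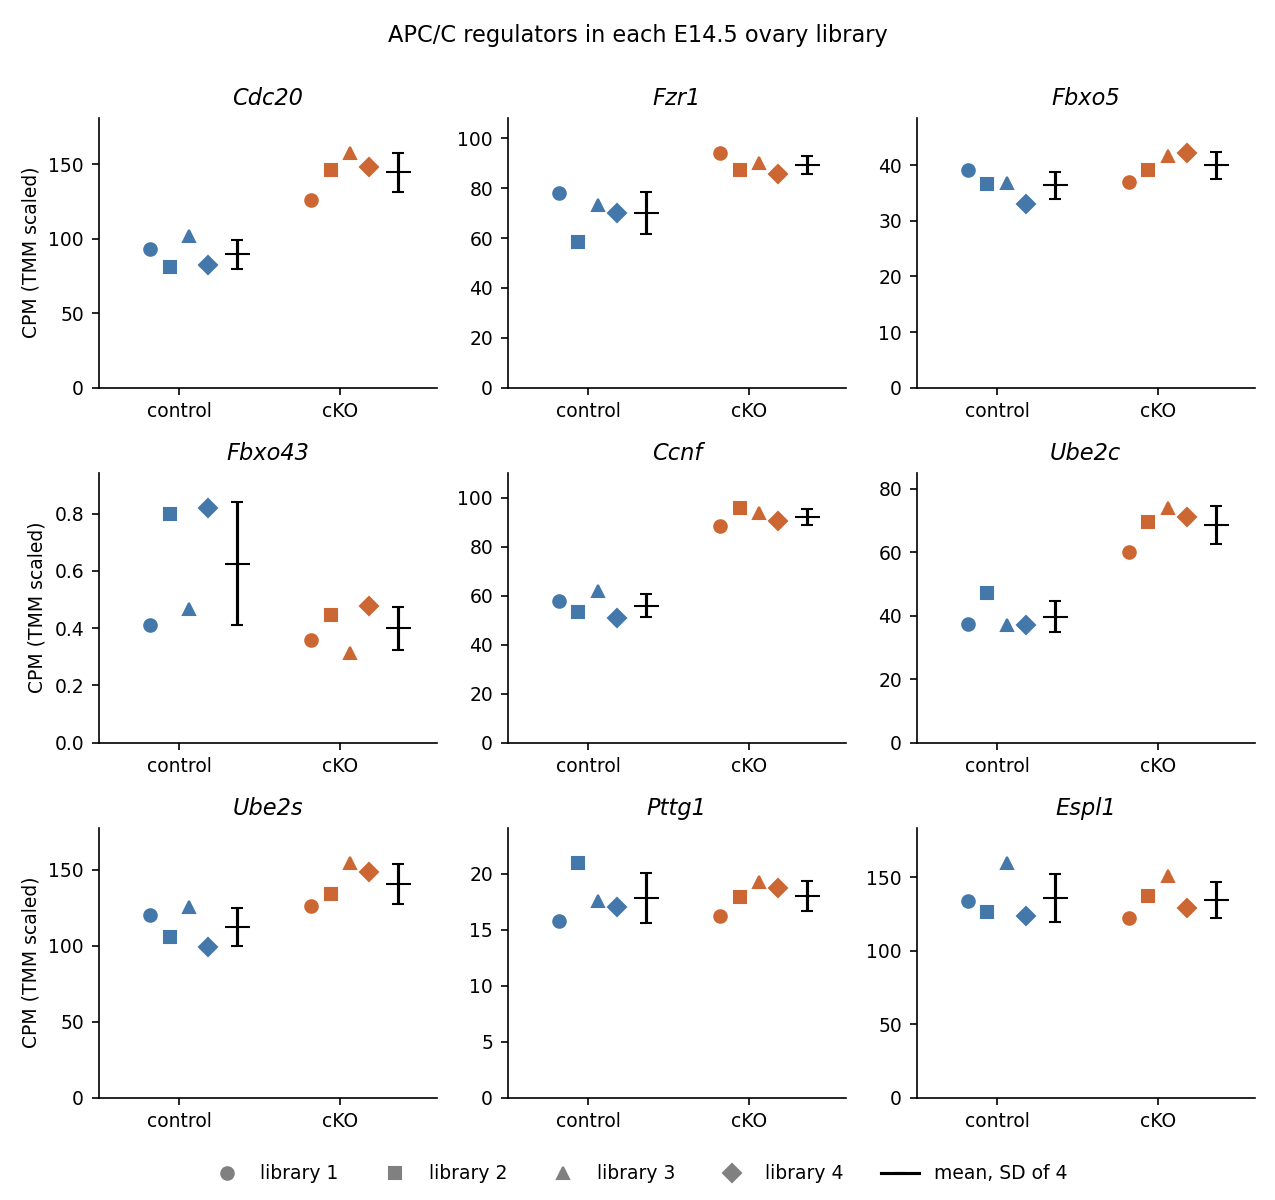
CPM (y axis, from 0) of the 9 genes in the 4 control (blue) and 4 *Bmpr1a*-cKO (orange) libraries, with marker shapes for the library number, which is not known to pair the libraries, and black bars for mean and SD. The libraries of the genotypes are apart for *Cdc20*, *Fzr1*, *Ccnf* and *Ube2c*, apart by less than 1 CPM for *Ube2s*, and mixed for *Fbxo5*, *Fbxo43*, *Pttg1* and *Espl1*.

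These libraries hold all cell types of the ovary, so more cells of a type, or more cells in mitosis, and more RNA per cell cannot be told apart. Depth ran from 8562961 to 15365052 counts per library, where 3 counts amount to 0.195 to 0.350 CPM before TMM scaling. Of these counts, 13.1% (control library 2) to 16.7% (*Bmpr1a*-cKO library 3) were of the ribosomal RNA gene *Rn45s*. *Bmpr1a* itself had 199 to 237 CPM in control and 185 to 209 CPM in *Bmpr1a*-cKO libraries (Log2FC of -0.16, SE 0.064, FDR = 0.0692 by edgeR), a value per gene of the whole ovary that does not check the labels. Germ cell markers were present in every library, with a summed level over 8 genes of 679 to 910 CPM in control and 676 to 1064 CPM in *Bmpr1a*-cKO libraries, and 2 of the 8 were higher and 3 lower at an FDR below 0.05. The level of pregranulosa cell markers was 1375 to 1650 CPM in control and 1165 to 1387 CPM in *Bmpr1a*-cKO libraries, with 7 of 8 genes lower, and that of macrophage markers 28.1 to 35.03 and 37.7 to 48.8 CPM, with 4 of 6 genes higher. Of the other lists, 1 of 6 Sertoli cell markers (*Sox9*) and 1 of 4 tested steroidogenic markers (*Hsd3b1*) were lower, and none of the tested markers of stroma (6), endothelium (6), mesonephros (4) or erythroid cells (2) passed. The summed level of Sertoli cell markers was 21.6 to 24.97 CPM in control and 17.6 to 20.2 CPM in *Bmpr1a*-cKO libraries (median Log2FC of -0.36). That of steroidogenic markers was 42.2 to 48.4 and 25.02 to 43.6 CPM (median Log2FC of -0.54). *Hba-a1*, *Hba-a2*, *Hbb-bs* and *Hbb-bt*, the defining erythroid markers, were listed at 0 counts in all libraries. The part of these cell types in the changes of the 9 genes was not tested.

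Many genes that peak in G2 and M phase carry a short element near their start site, the cell cycle genes homology region, whose usual letters are TTTGAA. This element was searched on both strands of the RefSeq promoter windows, 300 bases from 250 before to 50 after the start, which were at hand for 8 of the 9 genes in GRCm38.p6 (all but *Fbxo43*). It was found in 5 of the 8 windows and in 18.1% of 27025 windows over all genes. Each is shown 5′ to 3′ along the gene, with the 6 letters in capitals and 12 bases on either side. TTCAAA is the element read on the opposite strand. They are shown because the 3 upregulated DEGs all hold the element near the RefSeq start. So do *Espl1* and *Fbxo5*, whose expression did not pass the test. Distances are from the RefSeq start to the 5′ letter of the element along the gene. GENCODE, whose gene positions are given with each gene's values, places these starts elsewhere, so that the same letters begin 9 bases upstream of its start in *Cdc20*, 61 bases downstream and 55 bases upstream in *Ccnf*, 2 bases downstream in *Ube2c*, at the start itself in *Espl1* and 138 bases downstream in *Fbxo5*.
Cdc20, 18 bases upstream of the RefSeq start, chr4:118437344-118437373, minus strand: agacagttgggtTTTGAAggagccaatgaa
Ccnf, 14 bases upstream of the RefSeq start, chr17:24251406-24251435, minus strand: gctcccggcgcgTTTGAAaacggggcgggg
Ccnf, 130 bases upstream of the RefSeq start, chr17:24251522-24251551, minus strand: agacagccagcgTTTGAAttcgcgtcctgg
Ube2c, 29 bases upstream of the RefSeq start, chr2:164769888-164769917, plus strand: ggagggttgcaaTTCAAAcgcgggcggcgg
Espl1, 27 bases upstream of the RefSeq start, chr15:102296254-102296283, plus strand: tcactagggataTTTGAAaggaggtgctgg
Fbxo5, 3 bases downstream of the RefSeq start, chr10:5805445-5805474, minus strand: ttgggcaccaaaTTCAAAgattttaaaagt

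The windows of *Fzr1*, *Ube2s* and *Pttg1* did not hold these letters, and that of *Ube2s* held the variant TTCGAA, which is in 1.57% of all windows. CCAAT boxes, the letters CCAAT on either strand, numbered 6 in *Ube2c*, 3 in *Fbxo5*, 2 in *Cdc20*, 2 in *Ccnf*, 1 in *Fzr1* and 1 in *Espl1*, with none in *Ube2s* and *Pttg1*, and 37.9% of all windows held at least 1. The E2F-type letters TTTGGCGC, TTTCGCGC and TTTCCCGC were in none of the 8 windows, and in 0.537%, 0.318% and 1.11% of all windows. These matches describe letters, not binding.

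*Cdc20*, the mitotic coactivator (ENSMUSG00000006398, chromosome 4, 118432901 to 118437352 in mm10), had 92.9, 80.8, 102 and 82.4 CPM in control libraries 1 to 4. In *Bmpr1a*-cKO libraries 1 to 4 it had 126, 146, 158 and 148 CPM. The lowest mutant library, number 1, was above the highest control library. *Cdc20* thus rose from 89.4 ± 9.68 to 145 ± 13.2 CPM (SD, n = 4 each), 1.62-fold, with a Log2FC of 0.70 (SE 0.082, FDR = 1.80e-05 by edgeR).

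*Fzr1*, the coactivator of late mitosis and G1 (ENSMUSG00000020235, chromosome 10, 81366222 to 81378516), had 78.2, 58.3, 73.3 and 70.1 CPM in control libraries. The *Bmpr1a*-cKO libraries had 94.2, 87.2, 90.1 and 85.6 CPM, all above the controls, of which library 2 was the lowest. The rise from 69.98 ± 8.48 to 89.3 ± 3.76 CPM (SD, n = 4 each) was 1.27-fold, with a Log2FC of 0.35 (SE 0.080, FDR = 0.00395 by edgeR). Both coactivators were thus higher. The expression of *Cdc20* relative to *Fzr1* inside a library, which does not depend on the scaling between libraries, differed by a log2 ratio of 0.33, with overlapping libraries and no call (two-sided exact permutation test, n = 4 each, p = 0.0857, 0.114 adjusted over the 4 ratios given here).

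*Fbxo5* encodes EMI1, which blocks the APC/C from S phase to the onset of mitosis (ENSMUSG00000019773, chromosome 10, 5799160 to 5805600). Its control libraries had 39.1, 36.6, 36.7 and 33.1 CPM and its *Bmpr1a*-cKO libraries 37.0, 39.0, 41.7 and 42.2 CPM. The genotypes overlapped, with a mean of 36.4 ± 2.47 CPM for the controls and 40.0 ± 2.44 CPM for the mutants (SD, n = 4 each). The Log2FC was 0.14 (SE 0.074, FDR = 0.169 by edgeR), its 95% interval ran from -0.016 to 0.30, and under scaling to germ cell markers it turned to -0.077. Without control library 4 it was 0.088. The log2 ratio of *Fbxo5* to *Fzr1* was lower by 0.22 in *Bmpr1a*-cKO libraries and also was not called (difference of -0.22, two-sided exact permutation test, n = 4 each, p = 0.0571, 0.114 adjusted over 4 ratios); without control library 2 the difference was -0.13.

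*Fbxo43* encodes EMI2, the related inhibitor that holds oocytes at the metaphase of meiosis II (ENSMUSG00000048230, chromosome 15, 36150060 to 36164884). It was at the limit of the depth, with 5, 9, 5 and 13 counts in control libraries and 3, 6, 3 and 7 counts in *Bmpr1a*-cKO libraries. *Bmpr1a*-cKO libraries 1 and 3 stood at 3 counts, the lowest of all libraries. Summed over libraries, 32 counts gave 0.640 CPM in control (exact Poisson 95% interval 0.438 to 0.904) and 19 counts gave 0.413 CPM in mutant ovaries (0.248 to 0.644), intervals that cover counting error only and overlap. Without the filter on low counts its Log2FC was -0.63 (FDR = 0.353 by edgeR), so that a difference was not detectable at this depth.

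*Ccnf* encodes cyclin F, the F-box protein of another ubiquitin ligase, SCF, which opposes CDH1 and also marks the ribonucleotide reductase subunit RRM2 for destruction (ENSMUSG00000072082, chromosome 17, 24222198 to 24251484). It had 57.7, 53.6, 61.8 and 51.1 CPM in control libraries and 88.7, 96.0, 94.0 and 90.7 CPM in *Bmpr1a*-cKO libraries. The gap between the genotypes exceeded the range inside either. *Ccnf* rose 1.65-fold, from 56.0 ± 4.73 to 92.4 ± 3.26 CPM (SD, n = 4 each), with a Log2FC of 0.72 (SE 0.068, FDR = 2.44e-06 by edgeR), the lowest FDR among the members.

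*Ube2c*, the E2 that places the initial ubiquitin on APC/C substrates (ENSMUSG00000001403, chromosome 2, 164769898 to 164778822), had 37.3, 47.3, 37.2 and 37.2 CPM in control libraries. Control library 2 stood apart from the other three, which lay within 1 CPM of each other. The *Bmpr1a*-cKO libraries had 60.2, 69.5, 74.0 and 71.2 CPM, all higher than control library 2. *Ube2c* showed the largest rise among the members, 1.73-fold from 39.7 ± 5.03 to 68.7 ± 5.97 CPM (SD, n = 4 each), with a Log2FC of 0.79 (SE 0.089, FDR = 1.14e-05 by edgeR) that was 0.88 without control library 2.

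*Ube2s*, the E2 that extends the ubiquitin chain on the APC/C (ENSMUSG00000060860, chromosome 7, 4794546 to 4812590), had 120.0, 106, 126 and 99.0 CPM in control and 126, 134, 155 and 148 CPM in *Bmpr1a*-cKO libraries. The genotypes barely separated, at 125.7 CPM for the highest control and 125.9 CPM for the lowest mutant library. Its rise was 1.25-fold, from 113 ± 12.4 to 141 ± 13.1 CPM (SD, n = 4 each), with a Log2FC of 0.33 (SE 0.083, FDR = 0.00786 by edgeR). The ratio of *Ube2c* to *Ube2s*, in CPM with 0.5 added to each, was 0.314, 0.450, 0.299 and 0.379 in the control libraries and 0.480, 0.519, 0.480 and 0.482 in the *Bmpr1a*-cKO libraries. It is not corrected for length and serves to compare libraries only. These ratios did not overlap, and the log2 ratio was 0.46 higher in *Bmpr1a*-cKO libraries (two-sided exact permutation test, n = 4 each, p = 0.0286, the smallest that 4 against 4 libraries allow), which after adjustment over 4 ratios gave 0.114 and no call. A ratio that alone reaches this smallest p cannot be called after that adjustment, even with fully separate libraries. The lack of calls among the 4 ratios therefore does not show that they were alike between genotypes.

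*Pttg1* encodes securin, the inhibitor and chaperone of separase and a substrate of the APC/C (ENSMUSG00000020415, chromosome 11, 43420250 to 43426251). It had 15.8, 21.0, 17.6 and 17.0 CPM in control and 16.2, 17.9, 19.3 and 18.8 CPM in *Bmpr1a*-cKO libraries. All mutant libraries lay inside the range of the controls. Means of 17.9 ± 2.22 and 18.0 ± 1.34 CPM (SD, n = 4 each) gave a Log2FC of 0.022 (SE 0.10, FDR = 0.895 by edgeR), with a 95% interval from -0.19 to 0.24. The sign of this value turned under 3 other scalings, upper-quartile, library size and germ cell markers.

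*Espl1* encodes separase, the protease that cuts the kleisin subunit of cohesin at anaphase (ENSMUSG00000058290, chromosome 15, 102296266 to 102324357). Its control libraries had 134, 126, 160.0 and 124 CPM and its *Bmpr1a*-cKO libraries 122, 138, 151 and 129 CPM. Control library 3 was the highest of the 8 and *Bmpr1a*-cKO library 1 the lowest. The means were 136 ± 16.6 and 135 ± 12.3 CPM (SD, n = 4 each), with a Log2FC of -0.0095 (SE 0.084, FDR = 0.946 by edgeR) and a 95% interval from -0.19 to 0.17. For *Pttg1* and *Espl1* the intervals thus leave out a rise as large as that estimated for *Cdc20*, *Ccnf* or *Ube2c*. The log2 ratio of *Espl1* to *Pttg1* differed by -0.027 between control and mutant ovaries (two-sided exact permutation test, n = 4 each, p = 0.857, also after adjustment).

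**Figure D2:**
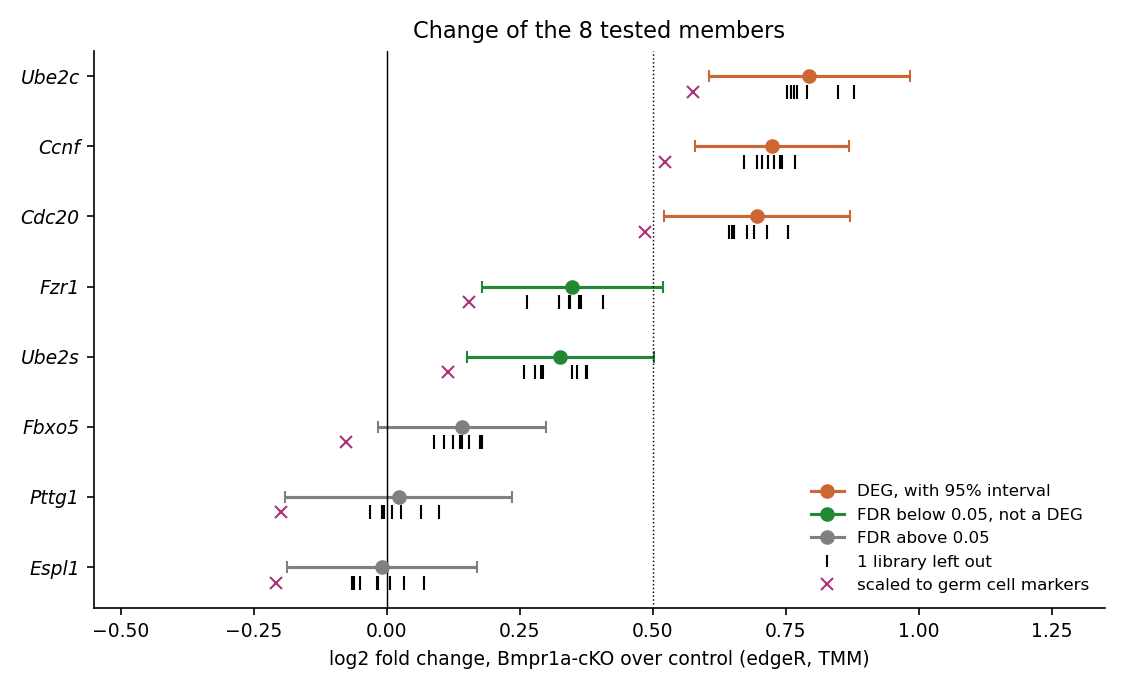
Log2FC (x axis) of the 8 tested genes with 95% intervals, coloured by DEG call; black ticks mark the value with each library left out and crosses the value under scaling to germ cell markers. *Ube2c*, *Ccnf* and *Cdc20* lie right of the dotted threshold of 0.5 with TMM scaling and with any 1 library left out, *Fzr1* and *Ube2s* between 0 and 0.5, and *Fbxo5*, *Pttg1* and *Espl1* have intervals that include 0.

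All 28 pairs of the 8 tested genes were then compared inside each library, a step added after the values had been seen, and no pair passed 0.05 after adjustment over the 28 (two-sided exact permutation tests, n = 4 each, smallest adjusted p = 0.0533). This test cannot give a p below 0.0286 with 4 against 4 libraries. The smallest adjusted value is therefore set by how many pairs reach 0.0286, and the lack of calls does not show that the ratios were alike. The log2 ratio of *Cdc20*, *Ccnf* or *Ube2c* to *Fbxo5*, *Pttg1* or *Espl1* was 0.56 to 0.79 higher in *Bmpr1a*-cKO libraries in these 9 pairs, a description, since the same libraries chose the genes by their calls. *Fzr1* and *Ube2s* were not set apart as a group. Against *Cdc20*, *Ccnf* or *Ube2c* the libraries of the genotypes overlapped in 2 of 6 pairs and not in 4, and against *Fbxo5*, *Pttg1* or *Espl1* they overlapped in 4 of 6 and not in 2. Among *Cdc20*, *Ccnf* and *Ube2c* themselves the log2 ratios differed between genotypes by at most 0.095, and among *Fbxo5*, *Pttg1* and *Espl1* by at most 0.14.

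**Figure D3:**
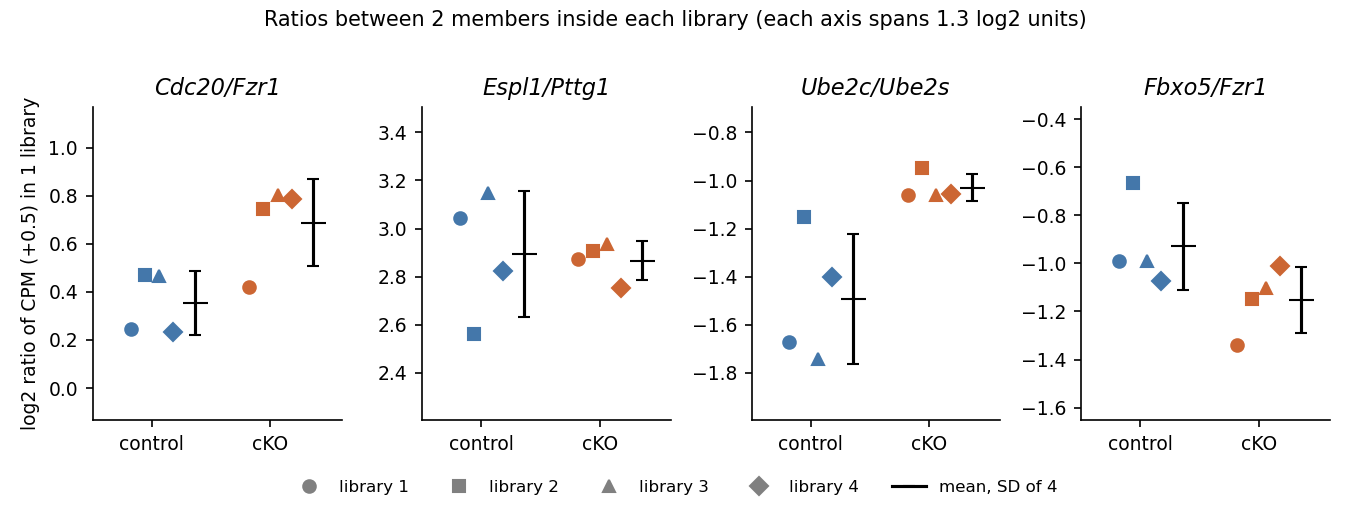
Log2 ratio of CPM (0.5 added to each) between 2 members in each library (y axis, each panel spanning 1.3 log2 units), for 4 control (blue) and 4 *Bmpr1a*-cKO (orange) libraries with mean and SD. *Ube2c* relative to *Ube2s* is higher in every *Bmpr1a*-cKO library, and the other ratios overlap.

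The calls held with any 1 library left out. *Cdc20*, *Ccnf* and *Ube2c* stayed DEGs in all 8 such fits, with a Log2FC of 0.64 to 0.75, 0.67 to 0.77 and 0.75 to 0.88, and *Fzr1* (0.26 to 0.41) and *Ube2s* (0.26 to 0.38) kept an FDR below 0.05, the highest being 0.0388 for *Ube2s* without control library 4. Scaling each library to the summed counts of the 8 germ cell markers in place of TMM moved the median Log2FC of all genes from -0.0042 to -0.21 and turned 871 up and 578 down DEGs into 403 up and 1037 down. Under it *Ube2c* alone among the members was a DEG, with a Log2FC of 0.58 (FDR = 0.0287 by edgeR), where 2.83% of all genes were upregulated DEGs. *Cdc20* (0.48, FDR = 0.0794 by edgeR), *Ccnf* (0.52, FDR = 0.0527), *Fzr1* (0.16, FDR = 0.612) and *Ube2s* (0.11, FDR = 0.714) kept their direction and lost their calls. Their standard errors also grew under it, that of *Cdc20* from 0.082 to 0.19. The 8 markers themselves changed with TMM scaling, 2 being higher and 3 lower at an FDR below 0.05. Their summed level ran from 676 to 1064 CPM among *Bmpr1a*-cKO libraries, so this scaling is not a plain correction for germ cell number.

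Levels between genes were compared per kilobase of exon (RPKM on the TMM scaling, with the union of all annotated exons as length). In control ovaries the order from the highest was *Cdc20* at 47.9 ± 5.18, *Ube2s* at 21.9 ± 2.41, *Fbxo5* at 18.1 ± 1.23, *Fzr1* at 15.6 ± 1.89, *Espl1* at 15.5 ± 1.89, *Ube2c* at 15.3 ± 1.93, *Pttg1* at 8.93 ± 1.11, *Ccnf* at 7.18 ± 0.606 and *Fbxo43* at 0.155 ± 0.053 RPKM (SD, n = 4). The ranges of neighbours in this order did not overlap for *Cdc20* and *Ube2s*, for *Ube2c* and *Pttg1*, and for *Ccnf* and *Fbxo43*, and overlapped for the other pairs. In *Bmpr1a*-cKO ovaries *Cdc20* stayed at the top with 77.4 ± 7.09 RPKM, *Ube2c* moved from place 6 to place 3 with 26.4 ± 2.30 RPKM, and *Ccnf* passed *Pttg1* at 11.8 ± 0.418 against 9.02 ± 0.668 RPKM. The order depends on the length used. With the median length of the coding transcripts instead, an alternative added after seeing the data, *Ube2s* led in control ovaries at 90.9 ± 10.02 RPKM, *Cdc20* followed at 49.9 ± 5.40 and *Ccnf* was again in place 8 at 13.6 ± 1.14 RPKM. From control to *Bmpr1a*-cKO ovaries *Ube2c* then went from place 4 to place 3 and *Ccnf* from place 8 to place 6. *Ccnf* then stayed below *Pttg1* in *Bmpr1a*-cKO ovaries too, at 22.3 ± 0.79 against 25.04 ± 1.86 RPKM.

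Some members share exon bases with a neighbour, and whether the counting used the strand is not stated, which makes their values less certain. *Ube2c* shares 592 bases with *Tnnc2* on the opposite strand, which had at most 0.0822 CPM in any library. *Ube2s* shares 183 bases with *Rpl28*, a ribosomal protein gene at 536 to 610 CPM in control and 532 to 589 CPM in *Bmpr1a*-cKO libraries (Log2FC of -0.026, SE 0.061, FDR = 0.786 by edgeR). *Cdc20* shares 53 bases with *Elovl1* (Log2FC of -0.23, SE 0.095, FDR = 0.0814 by edgeR), *Fzr1* 4 bases with *Mfsd12*, and *Ccnf* 8 bases with 2 microRNA genes. Near-identical copies elsewhere in the genome were not searched for.

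The other genes of the pathway were read from 7 lists, 78 genes in all when each is counted once, all of them tested. They held 17 upregulated DEGs and 1 downregulated DEG, 46 genes were higher and 5 lower at an FDR below 0.05, and their median Log2FC was 0.31 against -0.0042 for all genes. The shares over all genes tested, against which these counts and those of each list are read, were 6.11% and 4.06% for DEGs up and down and 17.3% and 12.5% for an FDR below 0.05 higher and lower. The 5 lower genes, named after their values were seen, were *Bub1*, *Ccp110*, *Kif23*, *Rec8* and *Rad21l*. Under germ cell marker scaling the 78 genes held 6 upregulated and 5 downregulated DEGs, where 2.83% and 7.28% of all genes were called, with a median of 0.11 where that of all genes was -0.21.

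Of the 14 core subunits that make up the APC/C itself, 1 was an upregulated DEG, *Cdc27*, a tetratricopeptide repeat subunit that coactivators dock on, which rose from 142 ± 11.1 to 209 ± 15.8 CPM (SD, n = 4 each), a Log2FC of 0.56 (SE 0.070, FDR = 3.37e-05 by edgeR). In all 3 of 14 were higher and 0 lower at an FDR below 0.05, near the 17.3% and 12.5% of all genes, and the median Log2FC was 0.084. No core subunit was a DEG under germ cell marker scaling, where *Cdc27* had a Log2FC of 0.35 (FDR = 0.241 by edgeR) and 2.83% and 7.28% of all genes were called up and down. The counts for the core subunits and the members were not tested against each other.

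Among 8 genes of the spindle checkpoint, which holds CDC20 until chromosomes are attached, *Bub1b* (BUBR1) had a Log2FC of 0.74 (SE 0.056, FDR = 2.93e-07 by edgeR) and *Bub3* of 0.56 (SE 0.053, FDR = 2.39e-06), and both were upregulated DEGs. *Bub1*, a kinase of the same pathway that *Bub3* brings to kinetochores, fell from 149 ± 11.8 to 117 ± 15.0 CPM (Log2FC of -0.35, SE 0.085, FDR = 0.00552 by edgeR), with every *Bmpr1a*-cKO library below every control library. In total 4 were higher and 1 lower at an FDR below 0.05 (17.3% and 12.5% of all genes), and the median was 0.29. Under germ cell marker scaling the list held 1 upregulated DEG, *Bub1b*, and 1 downregulated DEG, *Bub1* (-0.58, FDR = 0.0285 by edgeR), and *Bub3* lost its call (0.36, FDR = 0.222). Of all genes, 2.83% were upregulated and 7.28% downregulated DEGs under that scaling.

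The proteins that the APC/C destroys were the larger group, 26 genes with 7 upregulated and 0 downregulated DEGs, 19 higher and 1 lower (*Bub1*) at an FDR below 0.05, and a median Log2FC of 0.37, where 6.11% of all genes were upregulated DEGs and 17.3% were higher. With germ cell marker scaling the list held 3 upregulated DEGs and 1 downregulated DEG, where 2.83% and 7.28% of all genes were called. *Ccnb1*, the cyclin whose destruction ends mitosis, showed the largest rise, from 88.3 ± 6.91 to 215 ± 8.94 CPM (SD, n = 4 each; Log2FC of 1.29, SE 0.065, FDR = 6.92e-09 by edgeR). The mitotic kinases *Aurkb*, *Plk1* and *Aurka* followed, with a Log2FC of 0.91, 0.82 and 0.66, and *Aurka* lost its call under germ cell marker scaling (0.44, FDR = 0.124 by edgeR).

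Of 10 partners and substrates of cyclin F, 1 was an upregulated DEG (*Nusap1*, a spindle protein, Log2FC of 0.54, SE 0.067), 5 were higher and 1 lower at an FDR below 0.05 (17.3% and 12.5% of all genes), and the median was 0.20. The lower one was *Ccp110*, a centriole cap protein that cyclin F targets (Log2FC of -0.40, SE 0.079, FDR = 0.00152 by edgeR). *Ccp110* was the single DEG of the list under germ cell marker scaling (-0.61, FDR = 0.0178 by edgeR), and *Nusap1* lost its call (0.33, FDR = 0.257). That scaling called 2.83% of all genes up and 7.28% down. Of 6 genes of EMI1 turnover, *Plk1*, which marks EMI1 for destruction, was the only upregulated DEG, also under germ cell marker scaling, 3 were higher and 0 lower (17.3% and 12.5% of all genes), and the median was 0.15.

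Substrates of separase and genes that regulate cohesin, read as 1 list, held calls in both directions under TMM scaling, while *Espl1* did not pass the test. Of 8 genes, 4 were upregulated DEGs and 1 was a downregulated DEG (6.11% and 4.06% of all genes), with a median Log2FC of 0.35. The mitotic kleisin *Rad21* rose from 215 ± 11.9 to 357 ± 16.3 CPM (Log2FC of 0.73, SE 0.060, FDR = 6.49e-07 by edgeR), and *Cdca5* (sororin), *Sgo2a* and *Sgo1* (shugoshins), which protect cohesion, had a Log2FC of 0.69, 0.67 and 0.59. The meiotic kleisins fell. *Rec8* went from 179 ± 18.3 to 127 ± 10.7 CPM (Log2FC of -0.49, SE 0.079, FDR = 0.000288 by edgeR), short of the fold threshold, and *Rad21l* had a Log2FC of -2.49 (SE 0.35, FDR = 8.05e-05 by edgeR). Under germ cell marker scaling the list held 0 upregulated and 2 downregulated DEGs, *Rad21l* and *Rec8* (-0.67, FDR = 0.00714 by edgeR), and *Rad21* (0.53, FDR = 0.0529), *Cdca5*, *Sgo2a* and *Sgo1* kept their direction without a call. The shares of all genes under that scaling were 2.83% up and 7.28% down.

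A list of 30 other genes of G2 and M phase, which shares 14 genes with the list of substrates, held 11 upregulated and 0 downregulated DEGs, with 26 higher and 2 lower (*Bub1* and *Kif23*, a kinesin of cytokinesis) at an FDR below 0.05 and a median Log2FC of 0.43, where 6.11% of all genes were upregulated DEGs and 17.3% were higher. Under germ cell marker scaling it held 6 upregulated and 2 downregulated DEGs, where 2.83% and 7.28% of all genes were called. Its largest changes were those of *Ccnb1* and *Aurkb*, followed by *Cdc25c*, the phosphatase that activates CDK1 (Log2FC of 0.90, SE 0.12), and *Cks2*, a CDK1 subunit (0.86, SE 0.15). *Cks2* differed in that its libraries overlapped between genotypes.

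**Figure D4:**
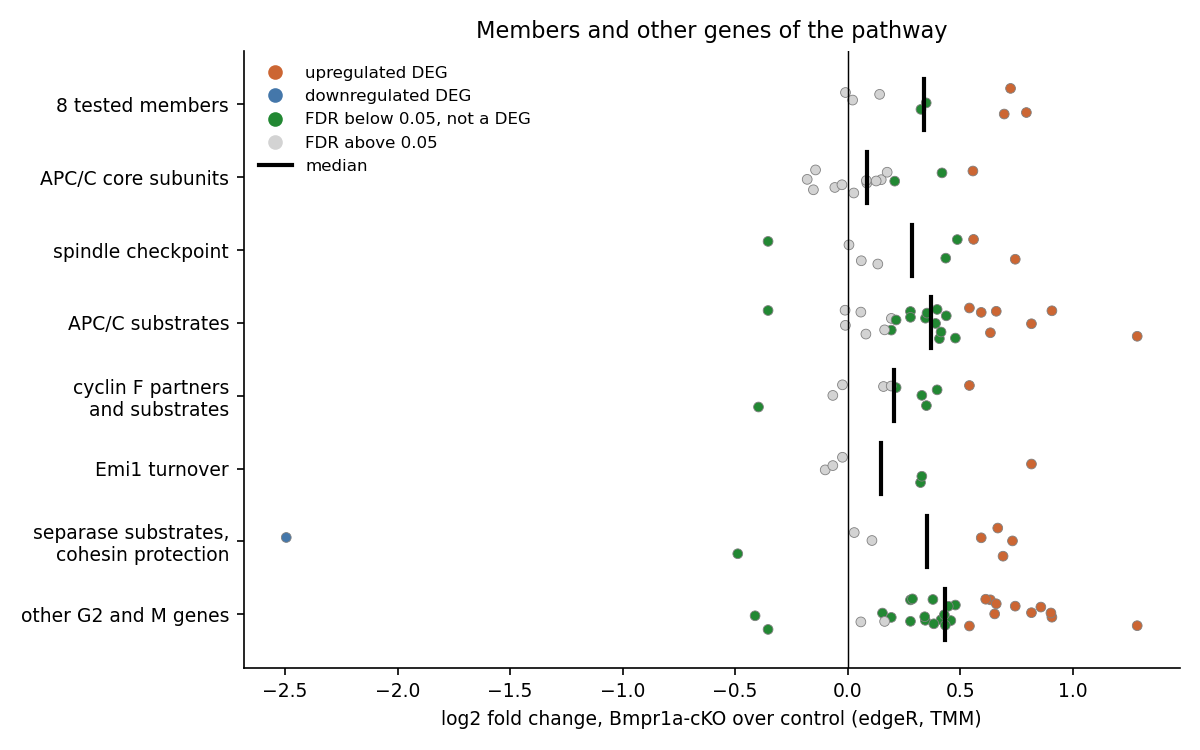
Log2FC (x axis) of the 8 tested members and of the genes of 7 pathway lists, 1 point per gene, coloured by call, with the median of each list as a black bar; points are spread vertically for legibility and a gene can be in more than 1 list. The medians run from 0.084 for the APC/C core subunits to 0.43 for other G2 and M genes, and *Rad21l*, the single downregulated DEG, lies at -2.49.

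The genes whose pattern over the 8 libraries was most like that of each upregulated member were found by the root-mean-square distance between log2 CPM profiles, each centred on its own mean. Since these members were picked as DEGs, genes with a like Log2FC lie near by this measure and unchanged genes lie far. The contrast with the median distance thus partly repeats the calls. Closest to *Cdc20* were the tubulin gene *Tubb2b* (0.055 log2 units), the DNA repair gene *Fancd2* (0.057) and *Spred2*, an inhibitor of RAS to MAPK signalling (0.066), where the median distance over all genes was 0.404. *Mcm10*, a factor of DNA replication, was closest to *Ccnf*, at 0.023, ahead of *Tubb2b* (0.048) and *Tubb4b*, another tubulin gene (0.052). For *Ube2c* they were *Slc25a13*, a mitochondrial carrier (0.058), *Rpf2*, a factor of ribosome assembly (0.061) and *Arrdc3* (0.068), with a median of 0.447 over all genes. *Cdc20* and *Ccnf* were also near each other, at 0.074, *Ccnf* being the gene of rank 6 for *Cdc20*, whereas *Ube2c* had rank 467 for *Cdc20* at 0.19.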

How the data were processed

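RNA-Seq libraries of E14.5 ovaries were made with a directional kit. The authors trimmed the reads with Trimmomatic 0.39, checked them with FastQC 0.11.9, mapped them to mm10 with STAR 2.5.2 and deposited 1 table of raw read counts per library. The annotation and the strand setting of this counting are not given in the sources used here. The authors also deposited a table of CPM-like signal for 14244 genes, of which the gene names alone were used, as an alternative filter.

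The counts were analysed in R 4.3.3 with edgeR 4.0.16 (filterByExpr by genotype, TMM, quasi-likelihood F test, two-sided, Benjamini-Hochberg over all genes tested), with the thresholds of the study. Groups followed the genotype labels, and no library was left out. Log2 CPM profiles carried a prior count of 2. Ratios inside a library were compared by exact permutation over the 70 arrangements of 8 libraries. Alternatives were the likelihood ratio test, limma-voom (3.58.1), DESeq2 (1.42.0), 4 other scalings, 3 other filters, a replicate block, each library left out, and no fold threshold. The test was tried on simulated counts. No 2 libraries agreed within sampling noise.

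The members and the gene lists were chosen with earlier results of these data known. Named genes are the members, *Bmpr1a*, in each list up to 4 DEGs with the largest change, and the 3 nearest profiles of each member that was a DEG. Added to these were *Sgo1*, the lower genes of the lists, some cell type markers and neighbours that share exon bases. Gene positions are from GENCODE vM21, matched by symbol for 24321 genes, and promoters from RefSeq. Intervals of counts cover counting error only.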

Additional observations from a re-analysis of the deposited data

Results flagged for a closer look

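In 26 groups of 4 libraries (9 genes and 4 ratios in each genotype), 3 single libraries stood apart by Dixon's test, which chance flags in about 1 of 20 groups. For *Ube2c*, control library 2 was the highest control at 47.3 CPM, against 37.2 to 37.3 CPM in the other three, and the Log2FC without it was 0.88. For the log2 ratio of *Cdc20* to *Fzr1*, *Bmpr1a*-cKO library 1 was the lowest at 0.42, against 0.74 to 0.80 in the others, and without it the difference between the genotypes was 0.42 in place of 0.33. For the log2 ratio of *Ube2c* to *Ube2s*, *Bmpr1a*-cKO library 2 was the highest at -0.95, against -1.06 to -1.05 in the others. The cause of these deviations was not tested.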

How the results depend on the processing

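Of the alternatives, scaling to germ cell markers changed the calls most, leaving 1 member as a DEG and 1 at an FDR below 0.05. Without the fold threshold, 4242 genes and 5 members were called. Fbxo5 turned to -0.077 under germ cell marker scaling, and Pttg1 to -0.012 under upper-quartile, -0.031 under library size and -0.20 under germ cell marker scaling, all without a call before or after. With 1 library left out, the Log2FC of Pttg1 ran from -0.032 to 0.098 and that of Espl1 from -0.065 to 0.070, so neither has a stable sign, while 3 members were DEGs and 5 had an FDR below 0.05 in every such fit, and all genes gave 1288 to 1627 DEGs. All other alternatives gave 3 and 5 members. The log2 ratio of Ube2c to Ube2s ran from 0.38 to 0.58 with 1 library left out, where 3 against 4 libraries were not tested. Whether the replicate numbers pair the libraries was not settled. The correlation of the deviations of same-numbered libraries across genes was 0.198, 0.161, 0.108 and -0.087. Not every library correlated best with its own number. The replicate block lowered the SE of every tested member but Fbxo5, as from 0.082 to 0.068 for Cdc20, and that of Fbxo5 went from 0.074 to 0.076. With the replicate block, 3 members and 1457 of all genes were DEGs. Depth limits Fbxo43, with 3 to 13 counts per library.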
